A study of Homo sapiens with 36 samples.

Results

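The comparison described here asks which changes in ribosome footprints under low-dose actinomycin D (actD) were still present after a schedule with drug-free days, and which had receded. It uses 12 of the 36 libraries of the series: 3 actD and 3 vehicle (dimethyl sulfoxide, DMSO) footprint libraries at 72 h and the same numbers at 2 weeks. All come from WiT49, an established line from an anaplastic Wilms tumor, a childhood kidney cancer. The 72 h groups received 2 nM actD or DMSO without a break. The 2-week groups were passaged through 2 cycles of 7 days, with 2 nM actD or DMSO for the first 3 days and plain growth medium for the other 4, and the labels do not give the hour of harvest within the last cycle. The groups therefore differ in drug exposure, drug-free time and passages together, which cannot be told apart. For each gene the effect of actD is the log2 difference between the actD and DMSO libraries of 1 time point, and the value tested is the 2-week effect minus the 72 h effect. The deposited tables list 43582 genes, of which 3760 had enough footprints to be tested. The labels do not say whether replicates came from separate cultures, so all p-values measure the spread between these libraries.

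ActD inserts into DNA and blocks transcription, and at low doses it is best known for stopping RNA polymerase I, which makes ribosomal RNA. Ribosome profiling sequences the short RNA fragments that a translating ribosome shields from nuclease, so a gene's footprint count follows both its mRNA level and how often that mRNA is translated. The mRNAs of ribosomal proteins belong to the terminal oligopyrimidine (TOP) class: they begin with a run of C and T (U in the RNA), and their translation rises and falls together under the mTOR growth pathway and the RNA-binding protein LARP1.

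The start sites of genes on which the results turn are shown first, to let the TOP class be seen beside genes that lack such a run. Each line gives 20 bases of the sense strand, from 5 bases before the RefSeq start of transcription to 15 from it (build GRCh38.p14), with the longest run of C and T in capitals.
RPL37A, large-subunit ribosomal protein, chr2:216498839-216498858, plus strand: TCTTCCTTTCTgggctcgga
RPL28, large-subunit ribosomal protein, chr19:55385927-55385946, plus strand: CCTTCCTCTTTCCgtctcag
RPS12, small-subunit ribosomal protein, chr6:132814564-132814583, plus strand: gaggCCTCTTTCCCTgccgc
MYL6, myosin light chain, chr12:56158354-56158373, plus strand: TCggagccattactgcagga
CHD4, chromatin remodelling ATPase, chr12:6606437-6606456, minus strand: cacagtgaCTCgggccagtg
CKAP5, microtubule-binding spindle protein, chr11:46846266-46846285, minus strand: ggtgtgcggcggCCCaagcg
MOB1A, Hippo pathway co-activator, chr2:74178865-74178884, minus strand: tccgcaTTTCgggtctgcga
ITM2C, transmembrane protein, chr2:230864180-230864199, plus strand: ctccaCTCTCgccagggtcc

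The longest run measured 11 bases in RPL37A, 13 in RPL28 and 11 in RPS12, against 2 in MYL6, 3 in CHD4 and CKAP5, 4 in MOB1A and 5 in ITM2C. In RPL37A, RPL28 and RPS12 the run begins before the annotated start, so part of it lies outside the annotated transcript. Of ribosomal protein genes not printed, RPLP1 had 11, RPLP0 10, RPS27 9, RPS27A 5 and RPL10 3. MSH6 had a run of 6. A run of at least 7 C or T, searched on the sense strand of this 20-base window alone, was present in 39 of the 50 tested ribosomal protein genes with an entry in the RefSeq table (78.0%). The share was 11.6% of the 27305 promoters in the table and 14.2% of the 2719 tested protein-coding genes with an entry. Among genes with higher footprints at 72 h that were not ribosomal proteins it was 11 of 111 (9.91%), and among genes with lower footprints 14 of 118 (11.9%).

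Depth bears on each value that follows. Total counts per library lay between 152556 and 784322 at 72 h and between 581392 and 1093427 in the 2-week set. The protein-coding share was 17.6% to 40.4% at 72 h but 6.24% to 9.39% at 2 weeks, where small nuclear RNA genes made up 46.3% to 64.8%. That left 26831 to 283435 protein-coding counts per library at 72 h and 50343 to 82002 at 2 weeks. At 72 h each actD library (283435, 127856 and 280076) held more than each DMSO library (121227, 82661 and 26831), so depth and treatment go together there. A count of 0 allows up to 3 counts, which is 1.92 to 18.0 CPM (each count divided by its TMM-scaled library total) at 72 h and 4.99 to 8.17 CPM at 2 weeks. These limits cover counting error only, since PCR copies of 1 molecule are counted more than once. In RNA at 72 h, 7 of 14 Wilms tumor and nephron progenitor markers exceeded 1 CPM, led by IGF2, LIN28B and CRABP2, while SIX2, EYA1, PAX2, PAX8, CITED1, SALL1 and EMX2 did not. The summed level of that list was 2123 to 2613 CPM in the DMSO libraries and 2125 to 2430 CPM in the actD libraries. None of 12 blood and endothelial markers exceeded 1 CPM, and all 12 stood at 0 footprint counts in the 12 libraries.

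Across genes, the footprint changes seen at 72 h were smaller at 2 weeks, and most pointed the same way. In edgeR's quasi-likelihood test, with p-values adjusted by Benjamini-Hochberg and a threshold of 0.05, 314 of 3760 genes differed between actD and DMSO at 72 h (8.35%), 166 higher (4.41%) and 148 lower (3.94%). At 2 weeks 0 of 3760 genes were called (0%), with 162 at an unadjusted p under 0.05, which is 4.31% of the genes, and 0 called by DESeq2. The arms did not overlap for 1290 genes at 72 h (34.3%) and for 469 genes at 2 weeks (12.5%). The difference between the 2-week and the 72 h effect was called for 2 genes (0.0532%), MOB1A and ITM2C, and had an unadjusted p under 0.05 for 282 genes (7.50%).

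Of the 166 genes with higher footprints at 72 h, 128 (77.1%) were also above 0 at 2 weeks, and their median effect was 1.95 on the log2 scale at 72 h and 0.38 at 2 weeks. Of the 148 genes with lower footprints, 131 (88.5%) were also below 0 at 2 weeks, with medians of -1.72 and -0.58. Together 82.5% kept their sign, compared with 64.7% of all tested genes and 63.1% of those not called at 72 h, and the time points share no library. The genes were picked by their 72 h values, so the smaller effect at 2 weeks of 311 of the 314 follows in part from the choice. At an unadjusted p under 0.05, 40 of the 314 differed in the same direction at 2 weeks, 8 higher and 32 lower. Another 2 differed in the opposite direction, PTCD1 and AC118553.2, which were named after their values were seen and average under 20 counts. Of the 3446 genes not called at 72 h, 85 differed at that level in the same direction and 35 in the opposite one. Over all 3760 tested genes these counts were 125 and 37.

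The number of calls at 72 h depends on the libraries in the fit. With the 6 libraries of 72 h fitted alone 92 genes were called, and of the 54 of these that could be tested at 2 weeks in a fit of that time point alone, 51 kept their sign (94.4%, against 70.2% of the 1354 genes tested in both). In the joint fit, 9 genes were called at 72 h without DMSO replicate 1 and 9 without DMSO replicate 2. Without DMSO replicate 3, the shallowest library, 333 were called, 108 higher and 225 lower. The calls were 58 without actD replicate 1, 89 without actD replicate 2 and 483 without actD replicate 3. The library name of 72 h DMSO replicate 1 is written in another form than those of the other 72 h footprint libraries. The labels do not say why. Leaving out a 2-week library gave 172 (actD replicate 2), 202 (actD replicate 3), 190 (DMSO replicate 1) and 144 calls (DMSO replicate 2) at 72 h. With TMM factors computed within each time point the calls at 72 h were 116 higher and 167 lower, with library totals 16 and 2, with the stricter filter on low counts 82 and 148, and without that filter 634 and 161. The median effect over all genes was 0.22 at 72 h, 0.03 at 2 weeks and -0.12 for the difference, and the 72 h median was 0.10 and 0.11 under the first and second of these scalings. Gene lists are therefore given relative to the median of all genes in the same contrast.

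**Figure D1:**
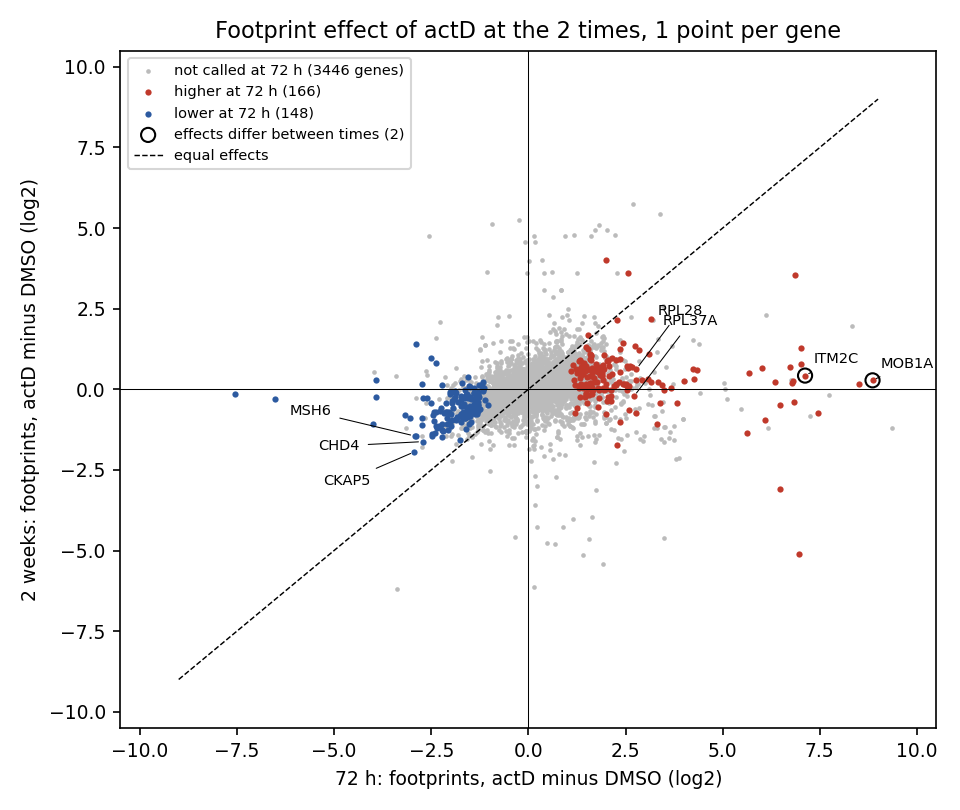
Each point is 1 of 3760 tested genes, with the footprint effect of actD (actD minus DMSO, log2) at 72 h on the x axis and at 2 weeks on the y axis; red and blue points are the 166 higher and 148 lower genes at 72 h and circles mark MOB1A and ITM2C. Most coloured points lie nearer to the horizontal axis than to the dashed line of equal effects, and points beyond about 5 on either axis come mostly from genes with arms at or near 0 counts, whose fitted size depends on the prior count.

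MOB1A, which binds and activates the LATS kinases of the Hippo growth-control pathway, was the gene whose footprint effect differed most clearly between the times. At 72 h it had 102, 40 and 189 counts under actD and was listed at 0 in all 3 DMSO libraries. At 2 weeks it had 13, 19 and 14 counts under actD and 7, 15 and 15 under DMSO. The arms were thus apart at 72 h and overlapped at 2 weeks. In CPM the 72 h actD mean was 90.2 ± 29 (SD, n = 3), and the 2-week means were 34.1 ± 6.93 with actD and 28.2 ± 11.1 with DMSO (SD, n = 3 each). Read as counts, the zeros allow 8.94 CPM on average over the 72 h DMSO libraries, which makes footprints at least 10.1-fold higher with actD at 72 h. The fitted log2 effect was 8.86 (SE 0.80, edgeR adjusted p = 0.00154) at 72 h and 0.28 (SE 0.41, adjusted p = 0.998) at 2 weeks, and their difference was -8.58 (SE 0.98, adjusted p = 0.0143). The fitted sizes against an arm at 0 depend on the prior count. The difference was called in 12 of 21 alternatives, with adjusted p-values from 4.37e-09 to 0.371. It was lost without any of 7 libraries (72 h actD replicate 1, 72 h DMSO replicates 1 and 2, the 3 replicates of 2-week actD and 2-week DMSO replicate 2), where the adjusted p was 0.05 to 0.0934.

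ITM2C, a transmembrane protein that inhibits processing of the amyloid precursor protein, showed the same pattern at lower counts. The 72 h actD libraries held 35, 21 and 31 counts and the 72 h DMSO libraries were listed at 0. At 2 weeks the counts were 9, 8 and 6 with actD and 5, 9 and 3 with DMSO. The 72 h arms were apart, and the 2-week arms were apart in CPM by a small margin, 15.8 to 18.1 with actD against 8.10 to 15 with DMSO. The 72 h bound against the floor of 3 counts was at least 3.08-fold. The 72 h actD replicate 3, at 19.8 CPM, lay close to the 18.0 CPM that a 0 allows in 72 h DMSO replicate 3. ITM2C passed the filter on low counts only through the 72 h actD libraries, the group where it is high. The fitted effect was 7.12 (SE 0.73, edgeR adjusted p = 0.00264) at 72 h and 0.43 (SE 0.39) at 2 weeks, with a difference of -6.70 (SE 0.93, adjusted p = 0.0431). The call held without 72 h actD replicate 3, 72 h DMSO replicate 3 or 2-week DMSO replicate 3 and was lost without each of the other 9 libraries, where the adjusted p was 0.0778 to 0.286.

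Both calls rest on an arm in which a gene is listed at 0, and such zeros were common among abundant mRNAs. The RNA of MOB1A at 72 h was 471 ± 19.4 CPM with actD and 516 ± 119 CPM with DMSO, and that of ITM2C 53.7 ± 7.35 and 61.3 ± 11.1 CPM (SD, n = 3 each). The RNA arms overlapped for both genes, and neither passed the threshold (log2 -0.13, SE 0.23, and -0.19, SE 0.21, edgeR adjusted p = 0.833 and 0.728). Of 1480 protein-coding genes with at least 100 CPM of RNA in the 72 h DMSO libraries, 205 (13.9%) were at 0 in all 3 footprint libraries of the 72 h DMSO arm, 100 (6.76%) in the 72 h actD arm, 96 (6.49%) in the 2-week actD arm and 72 (4.86%) in the 2-week DMSO arm. In all 12 libraries, 32 of them (2.16%) were at 0. Among tested protein-coding genes, 5 were at 0 throughout the 72 h DMSO arm and above 0 in each of the other 9 libraries, against 1 for the 2-week DMSO arm and 0 for each actD arm. The 72 h DMSO libraries also held fewer protein-coding counts than the 72 h actD libraries. Whether these zeros reflect absent translation, depth or the assignment of reads to genes was not tested.

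The paralogs of the 2 genes could not be tested. MOB1B had at most 2 counts in any library and ITM2A had none. ITM2B was listed at 39 counts in 72 h actD replicate 2 and at 9 in 72 h DMSO replicate 2, at 0 in the other 72 h libraries, and at 3 or fewer at 2 weeks.

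SNX22, a sorting nexin, had a profile like that of MOB1A but was not called. It held 88, 57 and 81 counts with actD and 0 in each DMSO library at 72 h, then 22, 32 and 0 with actD and 14, 13 and 16 with DMSO at 2 weeks (difference -8.36, SE 1.94, edgeR adjusted p = 0.292). Its RNA at 72 h was 0.279 ± 0.0382 CPM with actD and 0.277 ± 0.109 CPM with DMSO (SD, n = 3 each). PPIB, a cyclophilin gene that overlaps it on the opposite strand, had 245 CPM of RNA with DMSO and 204 CPM with actD. PPIB stood at 0 footprint counts in 10 of the 12 libraries and at 3 and 8 in the others. Reads of the 2 genes cannot be told apart where the use of strand in counting is not given, so the SNX22 footprints cannot be assigned to it.

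**Figure D2:**
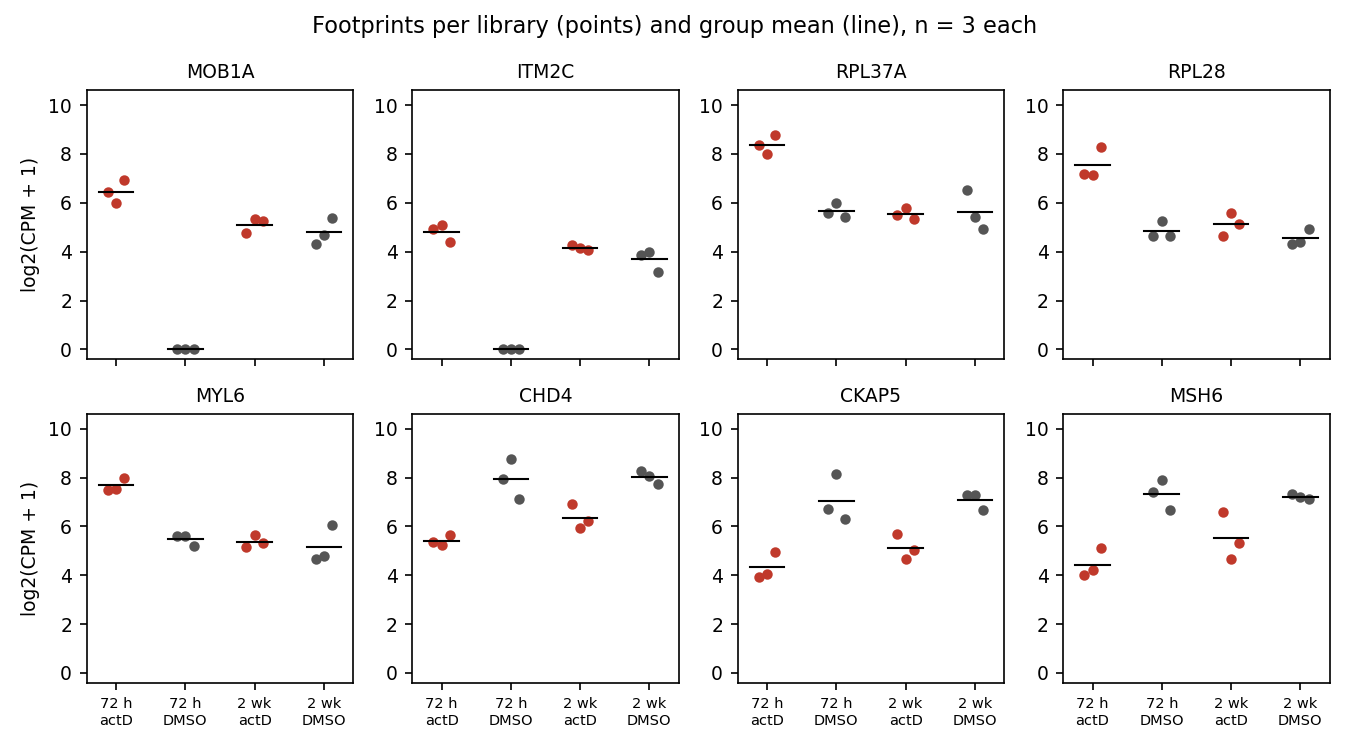
Footprint level of 8 genes as log2(CPM + 1) in each library (points; red actD, grey DMSO) with the group mean (line, n = 3 per group). MOB1A and ITM2C are at 0 in the 3 DMSO libraries of 72 h, RPL37A, RPL28 and MYL6 are higher with actD at 72 h and overlap at 2 weeks, and CHD4, CKAP5 and MSH6 are below DMSO at both times.

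Both ribosomal protein lists had a median effect above that of all genes at 72 h and near it at 2 weeks. Of 39 tested large-subunit genes, 14 rose at 72 h and none fell, and of 27 small-subunit genes 6 rose and none fell, against 4.41% of all tested genes called higher. At 2 weeks 0 of the 66 were called, also at an unadjusted p under 0.05, and 20 of 39 and 17 of 27 were above 0. Relative to all genes, the median effect of the large-subunit list was 1.10 at 72 h and -0.00 at 2 weeks, and that of the small-subunit list 1.10 and 0.13. The median difference between the times was -1.15 and -0.86 relative to all genes. All 39 large-subunit genes and 22 of 27 small-subunit genes had a difference below 0, and 16 and 7 of them had an unadjusted p under 0.05, none of which passed adjustment. Over all tested genes 44.9% had a difference above 0 and 7.50% an unadjusted p under 0.05. Ribosomal protein genes have many processed pseudogenes, and how reads with several matches were counted is not given.

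RPL37A, a small zinc-binding protein of the large subunit, had the clearest change of this kind. Its counts at 72 h were 394, 159 and 679 with actD and 40, 36 and 7 with DMSO, or 252 to 434 CPM against 42.0 to 63.5 CPM. At 2 weeks they were 22, 26 and 15 with actD and 33, 25 and 11 with DMSO, or 39.4 to 53.7 CPM against 29.7 to 89.9 CPM. Each 72 h actD library was above each DMSO library, and at 2 weeks the actD values lay inside the DMSO range. The effect was 2.72 (SE 0.45, edgeR adjusted p = 0.0137) at 72 h and -0.22 (SE 0.45) at 2 weeks, with a difference of -2.94 (SE 0.63) that missed the threshold (adjusted p = 0.23). RPL28, also of the large subunit, held 169, 89 and 482 counts with actD and 20, 21 and 4 with DMSO at 72 h. At 2 weeks it held 12, 23 and 13 with actD and 7, 12 and 11 with DMSO, and its arms overlapped in CPM. Its effect went from 2.78 (SE 0.44, adjusted p = 0.0136) to 0.63 (SE 0.46), a difference of -2.15 (SE 0.63, adjusted p = 0.419). UBE2S, which overlaps RPL28 on the opposite strand, held 129, 57 and 128 counts with actD and 25, 22 and 5 with DMSO at 72 h. Reads of RPL28 and UBE2S cannot be told apart where they overlap, since the use of strand in counting is not given. On the log2 scale RPL23 went from 1.81 to -0.27, RPL37 from 2.45 to 0.17, RPLP2 from 2.11 to -0.22 and RPS12, of the small subunit, from 1.80 to -0.55. SNORA21, a small nucleolar RNA gene, overlaps RPL23 on the same strand. At 72 h SNORA21 held 100, 71 and 67 counts with actD and 10, 3 and 85 with DMSO. How reads were divided between overlapping genes is not given. RPL3 and RPL4, with coding sequences of 1209 and 1281 bases, had effects of 0.31 and 0.15 at 72 h and of -0.61 and -0.15 at 2 weeks, with overlapping arms at both times.

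As a share of protein-coding footprints, large-subunit genes took 1.59%, 1.85% and 2.85% in the 72 h actD libraries and 1.18%, 1.65% and 0.645% in the DMSO libraries. At 2 weeks the shares were 0.800%, 1.11% and 0.985% with actD and 1.16%, 0.840% and 1.31% with DMSO. The arms overlapped at both times on this scale, with DMSO replicate 2 above actD replicate 1 at 72 h. In RNA at 72 h, RPL37A was at 704 ± 79.0 CPM with actD and 774 ± 439 CPM with DMSO, and RPL28 at 167 ± 3.31 and 197 ± 25.4 CPM (SD, n = 3 each; edgeR adjusted p = 0.899 and 0.606). RPLP2 RNA was at 423 ± 60.7 and 387 ± 86.7 CPM (SD, n = 3 each; adjusted p = 0.84), so its mean was higher with actD, and none of these 3 genes passed the threshold. RPL3 and RPL4 had lower RNA with actD, with arms apart. RPL3 RNA was 248 to 277 CPM with actD and 526 to 833 CPM with DMSO (log2 -1.41, SE 0.23, edgeR adjusted p = 0.19). RPL4 RNA was 638 to 730 CPM with actD and 969 to 1993 CPM with DMSO (log2 -1.01, SE 0.31, adjusted p = 0.283). Neither passed the threshold. Translation factors, several of which belong to the TOP class, carried a run of at least 7 C or T in 9 of 20 tested genes with an entry (45.0%). Of the 24 tested, 0 rose and 2 fell at 72 h, EIF4G1 and EIF3C, against 4.41% of all genes called higher and 3.94% called lower.

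Other genes also rose at 72 h without a call at 2 weeks. MYL6, the essential light chain of non-muscle myosin, held 213, 117 and 396 counts with actD and 40, 27 and 6 with DMSO at 72 h. The 2-week counts were 17, 24 and 15 with actD and 9, 16 and 24 with DMSO. The 72 h arms were apart and the 2-week arms overlapped, with effects of 2.21 (SE 0.41, edgeR adjusted p = 0.0145) and 0.10 (SE 0.42) and a difference of -2.11 (SE 0.58, adjusted p = 0.366). MYL6B, which overlaps MYL6 on the same strand, held 2, 2 and 52 counts with actD and 0 in each DMSO library at 72 h. Of 14 tested genes for folding and translocation in the endoplasmic reticulum (ER), 3 rose at 72 h, against 4.41% of all tested genes. These were SSR1, SSR2 and SSR4, subunits of the translocon-associated complex, at 3.07, 2.25 and 1.94, and at 2 weeks they were at 0.33, 0.17 and 0.64 without a call. The ER list's median difference relative to all genes was -0.95, but 0.33 with the stricter filter on low counts, which removed low members. PPIC, an ER cyclophilin, held 75, 36 and 104 against 11, 11 and 2 counts at 72 h and 3, 8 and 6 against 2, 3 and 4 at 2 weeks. Its effect was 2.02 (SE 0.37, adjusted p = 0.0144) and then 0.86 (SE 0.49), and its 2-week arms overlapped.

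Several lists had medians below that of all genes at 72 h and closer to it at 2 weeks. Cytosolic chaperones had a median effect of -1.05 at 72 h and -0.09 at 2 weeks relative to all genes, aminoacyl-tRNA synthetases, which charge tRNAs with amino acids, -1.07 and 0.01, and glycolytic enzymes -0.73 and 0.02. Genes of RNA polymerase I and ribosome biogenesis, the process that low-dose actD is known to block, were at -0.69 and -0.01, and splicing factors at -0.91 and -0.28. The counts behind these medians were small: at 72 h, 1 of 18 chaperones (HSP90AB1), 1 of 13 synthetases (EPRS), 0 of 12 glycolytic genes, 4 of 26 biogenesis genes (TCOF1, DDX21, NOP2 and PES1) and 3 of 30 splicing factors (SNRNP200, SF3B3 and HNRNPR) fell, against 3.94% of all genes called lower, and none rose. The difference between the times was above 0 for 13 of 13 synthetases, 15 of 18 chaperones, 21 of 26 biogenesis genes, 23 of 30 splicing factors and 9 of 12 glycolytic genes, compared with 44.9% of all genes. No member of these lists was called for the difference.

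TCOF1, the treacle protein that promotes transcription of ribosomal DNA, was the clearest case among them. It held 30, 17 and 37 counts with actD and 56, 52 and 10 with DMSO at 72 h, or 23.7 to 26.9 CPM against 60.0 to 91.8 CPM. At 2 weeks it held 24, 17 and 12 with actD and 16, 23 and 9 with DMSO, or 31.5 to 48.4 CPM against 24.3 to 43.6 CPM. The arms were apart at 72 h and overlapped at 2 weeks. Its effect was -1.54 (SE 0.32, edgeR adjusted p = 0.0178) and then 0.12 (SE 0.33), with a difference of 1.65 (SE 0.46, adjusted p = 0.366). MAGED1, a melanoma antigen family adaptor protein, held 25, 19 and 43 against 122, 56 and 48 counts at 72 h and 76, 37 and 29 against 52, 82 and 34 at 2 weeks. It went from -2.72 (SE 0.48, adjusted p = 0.0137) to -0.27 (SE 0.45), the largest upward difference among the genes named for it (2.45, SE 0.65, adjusted p = 0.337). KDM1A, a histone demethylase, went from -1.39 to -0.10, DDX54 and DDX1, RNA helicases, from -1.28 to 0.13 and from -1.21 to 0.14, CAND1, an exchange factor of cullin ubiquitin ligases, from -1.92 to -0.29, and SYNCRIP, an RNA-binding protein, from -1.85 to -0.10. USP11, a deubiquitinase, was not called at 72 h (-1.0, SE 0.30, adjusted p = 0.0591) and was at 0.27 at 2 weeks.

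Some genes that fell at 72 h had values below DMSO at 2 weeks as well. CHD4, the ATPase of the nucleosome remodelling and deacetylase complex, held 47, 23 and 76 counts with actD and 208, 249 and 23 with DMSO at 72 h, or 36.4 to 48.6 CPM against 138 to 440 CPM. At 2 weeks it held 59, 29 and 28 with actD and 112, 159 and 78 with DMSO, or 59.9 to 119 CPM against 211 to 305 CPM. Each actD library was below each DMSO library at both times. The effect was -2.72 (SE 0.47, edgeR adjusted p = 0.0137) at 72 h and -1.62 (SE 0.46, unadjusted p = 0.00388, adjusted p = 0.951) at 2 weeks, and the difference of 1.10 (SE 0.64, adjusted p = 0.699) was not called. CKAP5, which promotes microtubule growth at the spindle, held 17, 10 and 47 against 89, 159 and 13 counts at 72 h and 25, 12 and 12 against 57, 94 and 37 at 2 weeks. Its arms were apart in CPM at both times, with effects of -2.93 (SE 0.54, adjusted p = 0.0144) and -1.94 (SE 0.53, unadjusted p = 0.00318, adjusted p = 0.951). MSH6, a mismatch recognition protein, held 18, 11 and 52 against 142, 134 and 17 counts and then 48, 12 and 15 against 58, 88 and 51, with effects of -2.93 (SE 0.54, adjusted p = 0.0144) and -1.45 (SE 0.52, unadjusted p = 0.0159). SFPQ, a paraspeckle and splicing protein, was at -2.21 (SE 0.51, adjusted p = 0.0237) and -1.46 (SE 0.51), and DHX30, a mitochondrial RNA helicase, at -2.45 (SE 0.47, adjusted p = 0.015) and -0.81 (SE 0.46), with overlapping arms at 2 weeks.

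The lists to which these genes belong moved little between the times. Of 23 tested chromatin remodelling genes, 2 fell at 72 h (CHD4 and SMARCC1, against 3.94% of all genes) and 22 were below 0 at 2 weeks, 5 of them with an unadjusted p under 0.05 (CHD4, BAZ1B, KMT2A, SMARCC2 and CHD9). Of all tested genes, 51.9% were above 0 at 2 weeks and 4.31% had an unadjusted p under 0.05. Of the 855 tested protein-coding genes with the longest coding sequences (2712 bases or more), 25.6% were above 0 at 2 weeks. The list's median relative to all genes was -0.63 at 72 h and -0.48 at 2 weeks. Its median difference was 0.08 and ranged from -0.21 to 0.30 when 1 library was left out, so it has no direction. Mitosis and spindle genes had medians of -0.73 and -0.46, with 3 of 19 lower at 72 h (CKAP5, TOP2A and ASPM) and 15 of 19 below 0 at 2 weeks. TOP2A, the topoisomerase of dividing cells, went from -2.04 (SE 0.44, edgeR adjusted p = 0.0203) to -0.70 (SE 0.43). MKI67, a proliferation marker, was not called at either time (-0.56 and -1.43).

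A smaller set had higher values with actD at both times. NECTIN2, a cell adhesion receptor, had 107, 51 and 98 counts with actD and 35, 19 and 8 with DMSO at 72 h, or 62.7 to 90.7 CPM against 33.5 to 48.0 CPM. At 2 weeks it had 20, 19 and 16 with actD and 9, 13 and 6 with DMSO, or 39.2 to 42.1 CPM against 16.2 to 24.5 CPM. The arms were apart at both times, and the effect was 0.95 at each (SE 0.29, edgeR adjusted p = 0.0624, and SE 0.32, unadjusted p = 0.0111), so that NECTIN2 was not called at either. APLP2, a relative of the amyloid precursor protein, also had separate arms at both times, at 1.21 (SE 0.38, adjusted p = 0.0641) and 0.90 (SE 0.38, unadjusted p = 0.0355). APH1A, a gamma-secretase subunit, rose at 72 h (1.78, SE 0.34, adjusted p = 0.015) and was at 0.66 (SE 0.38) at 2 weeks with arms still apart, 15.8 to 22.7 CPM against 10.8 to 13.6 CPM. All 7 tested members of the list of ITM2 genes and amyloid processing genes were above 0 at 2 weeks and none was called there. At 72 h 5 of the 7 were above 0, and APP, the amyloid precursor protein, was at -0.21 (SE 0.36). Proteasome subunits had medians of 0.30 and 0.24 relative to all genes, with 18 of 23 above 0 at each time, and 0 of 23 were called at 72 h, at 2 weeks or for the difference. At an unadjusted p under 0.05, 1 was higher and 2 were lower at 72 h, against 1091 of all 3760 genes in either direction, and none differed otherwise.

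**Figure D3:**
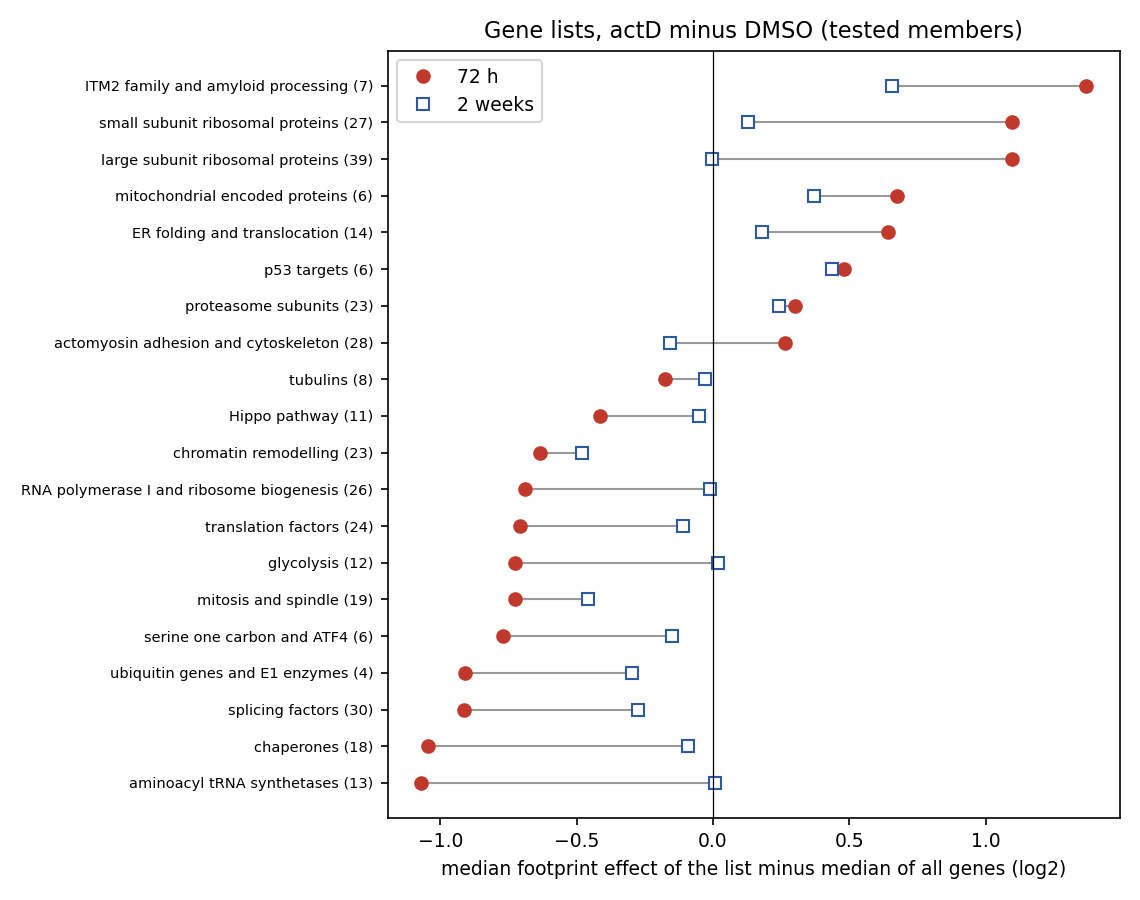
Median footprint effect of each gene list with at least 4 tested members, minus the median of all genes in the same contrast (log2), at 72 h (red circles) and 2 weeks (blue squares), with the number of tested members in brackets. The ribosomal protein lists move from 1.10 to near 0 and the synthetase and chaperone lists from below -1 to near 0, while chromatin remodelling stays at -0.63 and -0.48.

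The footprint changes followed coding length at both times, and less steeply at 2 weeks. Among tested protein-coding genes divided into 4 equal groups by the length of the longest coding sequence, the shortest group (72 to 975 bases, 862 genes) had a median effect of 0.97 at 72 h and 0.33 at 2 weeks. The longest group (2712 to 22776 bases, 855 genes) had -0.50 and -0.27. The shortest group held 124 of the genes called higher at 72 h and 1 called lower, and the longest held 2 and 99. The gap between the shortest and the longest group was 1.47 at 72 h, 0.60 at 2 weeks and -0.78 for the difference between the times. These patterns were noticed in the same data and are given as a description. When single libraries were left out the gap ranged from 1.37 to 1.73 at 72 h and from 0.42 to 0.91 at 2 weeks. The 2-week gap was 0.91 without 2-week DMSO replicate 3, and without the filter on low counts it was 0.28.

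The same 2 groups were set side by side within each library. The median log2 CPM of the shortest group minus that of the longest was 0.64, 0.45 and 0.34 in the 72 h actD libraries and -0.71, -0.54 and -1.57 in the 72 h DMSO libraries. The 2-week values were -0.43, 0.00 and 0.19 with actD and -0.98, -0.74 and -0.19 with DMSO. The arms were apart at 72 h, and at 2 weeks actD replicate 1 lay between DMSO replicates 2 and 3. By share of counts the 72 h arms overlapped: the shortest group took 61.4%, 57.6% and 43.1% with actD and 27.3%, 26.4% and 46.9% with DMSO. Without the ribosomal protein genes the shortest group was at 0.93 and 0.36, and with a mean of at least 20 counts at 0.93 and 0.36, against -0.50 and -0.27 and -0.50 and -0.25 in the longest group. The RNA at 72 h moved much less, from -0.02 in the shortest to -0.26 in the longest group. The median coding length was 642 bases for the genes higher at 72 h and 3411 for those lower, against 1593 for all tested genes. It was 4455 bases for the 32 genes that were lower at 72 h and at 2 weeks (unadjusted p under 0.05). Ribosomal proteins are short (RPL37A 276 bases) and remodellers long (CHD4 5820 bases), but not every list or gene follows this order: the glycolytic list, with ENO1 at 1302 bases, was at -0.73 at 72 h, and AHNAK, at 17670 bases, had an effect of 0.94. The share of the list changes that goes with length was not tested.

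**Figure D4:**
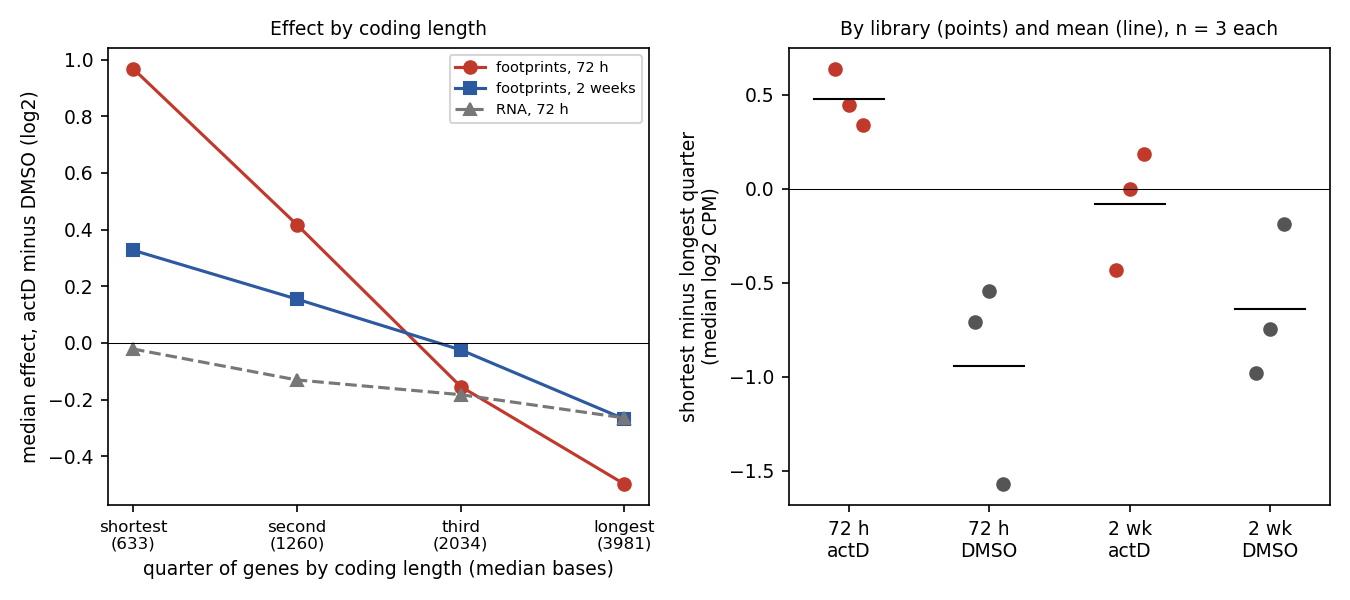
Left, the median effect of actD (log2) in 4 groups of genes by coding length, for footprints at 72 h and 2 weeks and for RNA at 72 h; right, the median log2 CPM of the shortest minus the longest group in each library (points) with the mean (line, n = 3 per group). Footprints fall from 0.97 to -0.50 at 72 h and from 0.33 to -0.27 at 2 weeks, and in the right panel the 72 h actD libraries lie above the 72 h DMSO libraries, while the 2-week arms overlap.

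RNA at 72 h gives a readout that the footprint tests did not use. By the same test on RNA, 1 of 21195 genes was called (0.00472%), while 2768 had an unadjusted p under 0.05. Of the 105 named genes that could be tested, edgeR called 0 and DESeq2 called 16. How many of all RNA genes DESeq2 called was not counted, so its 16 calls have no background. Of the genes described above as low in footprints at both times, 3 had separate RNA arms at 72 h. MSH6 RNA was 43.7 to 52.7 CPM with actD and 102 to 146 CPM with DMSO (log2 -1.38, SE 0.21, edgeR adjusted p = 0.174). CHD4 RNA was 102 to 133 CPM with actD and 153 to 511 CPM with DMSO (log2 -1.34, SE 0.43, adjusted p = 0.294), and CKAP5 RNA 62.5 to 93.9 and 110 to 327 CPM (log2 -1.27, SE 0.40, adjusted p = 0.293). The arms were apart for all 3 genes, and none passed the threshold in edgeR. DESeq2's RNA calls were not recorded by gene. The RNA arms of SFPQ (180 to 212 CPM with actD and 172 to 480 with DMSO) and DHX30 (27.8 to 36.3 and 25.7 to 80.7) overlapped, each with a log2 difference of -0.64 and edgeR adjusted p-values of 0.493 and 0.516. MAGED1, whose footprint effect was near 0 at 2 weeks, had 16.9 to 23.2 CPM of RNA with actD and 60.6 to 106 CPM with DMSO at 72 h (log2 -2.06, SE 0.27, adjusted p = 0.174). For the 2-week RNA libraries the title and the library name give opposite treatments, so they enter no comparison, and over the 6 of them MAGED1 ranged from 76.0 to 133 CPM, CHD4 from 160 to 400.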

How the data were processed

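Footprints and RNA were aligned and counted with HISAT2 and StringTie on build hg38, per the submitters' processing notes; versions, annotation, strand and the treatment of reads with several matches are not given in the sources used here. The values are estimated counts per gene, as deposited by the authors, already whole numbers, and how many reads 1 count stands for is not known.

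The 72 h and 2-week footprint tables were joined by gene. All 12 libraries were fitted together with edgeR 4.0.16 in R 4.3.3 (quasi-likelihood test, two-sided, TMM over the 12 libraries, filterByExpr, Benjamini-Hochberg adjustment over 3760 genes). The effect at 72 h, the effect at 2 weeks and their difference are contrasts of that fit, and RNA at 72 h was fitted alone. Levels are compared only within a time point, because the tables may carry their own count scale. Standard errors were derived from the log2 change and its F statistic. Symbols, coordinates and coding lengths come from GENCODE on GRCh38 (99.4% of identifiers matched, 93.6% with their version), and start sequences from RefSeq on GRCh38.p14. No 2 replicates were duplicates, the lowest chi-square per degree of freedom within a group being 7.39. The fit was tested on simulated data, where it missed many of the differences between the times that had been put in. DESeq2 1.42.0, other scalings and filters, and leaving out each library were alternatives.

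Named genes were those called for the difference and their paralogs; with a mean of at least 20 counts, the 8 protein-coding genes with the smallest p for the difference in each direction, the 6 called at 72 h with the smallest p in each direction and the 5 with the smallest larger p among those under 0.05 in the same direction at both times; and the 4 most abundant members of each list. Other members are named where a list's count is given, and some genes that the rule picks are not reported here. Members and lists were chosen with earlier results of these data known.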

Additional observations from a re-analysis of the deposited data

Results flagged for a closer look

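The effect of actD on footprints differed between 72 h and 2 weeks by test for MOB1A (2-week minus 72 h effect -8.58 on the log2 scale, edgeR adjusted p = 0.0143) and ITM2C (-6.70, adjusted p = 0.0431). Both differences are fitted against a 72 h DMSO arm listed at 0, and ITM2C passed the filter on low counts only through the 72 h actD libraries.

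HSPA5, the main chaperone of the ER, was picked out among the named genes because its arms were apart in opposite directions. At 72 h its 3 actD libraries (380 to 535 CPM) lay below its 3 DMSO libraries (538 to 1019 CPM), and at 2 weeks they lay above (443 to 726 against 292 to 437 CPM). The 2-week minus 72 h difference was 1.41 (SE 0.57), and it did not pass the threshold in edgeR's test over all genes (adjusted p = 0.584). Over all tested genes the arms were apart for 34.3% at 72 h and 12.5% at 2 weeks. How many of all genes were apart in opposite directions was not counted. HSPA5 RNA at 72 h was 133 ± 57.1 CPM with actD and 262 ± 47.8 CPM with DMSO (SD, n = 3 each; edgeR adjusted p = 0.298).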

How the results depend on the processing

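Genes named for their p-values were recomputed for the contrast that chose them, and none changed sign there in a setting that gave it a value. Several list medians near 0 did change sign. The number of genes whose effect differs between the times was 13 with DESeq2 (3 higher, 10 lower), 1 with library totals, 206 without a filter on low counts, 1 with the looser and 1 with the stricter filter, 0 with the 6 h libraries in the fit and 0 to 7 when 1 library was left out (7 without 72 h DMSO replicate 3, 4 without 2-week DMSO replicate 3). The number at 72 h was 18 with library totals, 795 without a filter, 64 with the looser filter, 96 with the 6 h libraries, 92 with the 72 h libraries alone and 9 to 483 with 1 library left out. The number at 2 weeks was 32 without a filter and 0 to 1 with 1 library left out. The share of 72 h genes that kept their sign was 59.2% without a filter, 87.5% with the 6 h libraries, 94.4% with each time point fitted alone (chosen after seeing the data) and 70.7% to 88.7% in the 10 fits without 1 library that left at least 10 calls. The cause of these shifts was not tested, beyond the change in the genes and libraries that each setting brings.

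The median difference of the large-subunit ribosomal protein list, relative to all genes, was -0.78 without a filter and -1.43 to -0.81 with 1 library left out. For the small-subunit list it was -0.35 without a filter and -1.26 to -0.46, the latter without 72 h actD replicate 3. The chromatin list lay on either side of 0, from -0.21 to 0.30, with 1 library left out. DESeq2 called 16 of the named genes in RNA at 72 h and edgeR 0, without a count over all genes for DESeq2. The coding length comparison was chosen after seeing the data, and its difference between the times ran from -1.08 to -0.54 with 1 library left out.

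Whether the replicate numbers pair the libraries is not settled. Deviations of same-numbered actD and DMSO libraries correlated at 0.069, -0.025 and -0.0065 at 72 h and 0.23, -0.015 and 0.27 at 2 weeks. The highest correlation with a DMSO library of another number was -0.011, 0.020 and 0.055 at 72 h. At 2 weeks it was 0.12, 0.015 and -0.10. The same number thus correlated more for replicate 1 at 72 h and for replicates 1 and 3 at 2 weeks. With the replicate block 0 genes differed between the times, 0 were called at 2 weeks and 141 at 72 h, with 87.9% of these keeping their sign.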

Other observations

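CYR61 and CTGF, secreted targets of the YAP transcription factor, had higher values with actD at both times without a call. CTGF held 81, 34 and 604 counts with actD and 22, 25 and 17 with DMSO at 72 h, and 3, 10 and 6 against 0, 4 and 0 at 2 weeks. CYR61 held 134, 52 and 645 against 33, 32 and 30 counts, then 0, 24 and 14 against 4, 3 and 3. The arms of each gene overlapped at both times in CPM, and the difference between the times was 0.55 for CTGF (SE 1.40) and 0.62 for CYR61 (SE 1.42), each smaller than its error. YAP1 itself was at -0.23 (SE 0.33) and -0.02 (SE 0.33).

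Footprint libraries also hold counts in microRNA genes. The 55 tested had a median fitted effect of 2.55 at 72 h and -0.90 at 2 weeks and a median difference of -3.05. As a share of all counts, microRNA genes took 2.11%, 3.45% and 2.80% with actD and 1.18%, 4.00% and 5.89% with DMSO at 72 h, and 3.47%, 5.42% and 5.07% against 1.87%, 2.98% and 8.65% at 2 weeks. The arms overlapped at both times, and the summed share does not follow the median fitted effect. For 11 of them the difference had an unadjusted p under 0.05 (7.50% of all tested genes), and 0 were called by edgeR. DESeq2's calls were not split by gene type. These values were looked at after the other results.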
